A study of Mus musculus with 21 samples.

Results

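Activated fibroblast and matricellular genes were described in mouse colon across 7 groups of 3 RNA-seq libraries. The 8 genes were chosen by symbol from the 24062 rows of the count table: Inhba, Thbs1, Thbs2, Tnc, Postn, Lox, Fap and Pdpn. All 8 passed the low-count filter and are among the 15936 genes tested. The mice were C57BL/6 of 2 genotypes, wild-type and App NL-G-F, in which mutations of Alzheimer's disease are knocked into the gene of the amyloid precursor protein. Tumours came from wild-type males, knock-in males and wild-type females, and the labels give their treatment as AOM/DSS, the carcinogen azoxymethane with the colitis agent dextran sulfate sodium. Normal colon came from males and females of each genotype, and App NL-G-F mice are called knock-in. Its label is "Non-treatment", whereas the series describes colon adjacent to tumours, or colon of mice without tumours, so whether normal colon had seen AOM/DSS was not settled and it is called normal colon here. No group of knock-in female tumours was analysed here, and ages are not given in the labels.

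Fibroblasts that enter a wound or a tumour change what they secrete. Inhba encodes the subunit of activin A, a ligand of the TGF-beta family that signals through activin receptors and is trapped by follistatin. Thbs1, Thbs2, Tnc and Postn encode matricellular proteins (thrombospondins, tenascin-C and periostin), which sit in the matrix and modulate how cells bind it. Thrombospondin 1 can also activate latent TGF-beta. Lox encodes lysyl oxidase, which crosslinks collagen and elastin. Fap encodes a cell-surface protease related to dipeptidyl peptidase 4, and Pdpn encodes podoplanin, a membrane glycoprotein of stromal and lymphatic endothelial cells. In normal colon, periostin is known from the fibroblast sheath that lies under the crypts.

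The 8 genes did not move as 1 group. Inhba was higher in tumours than in normal colon in all 3 backgrounds, and Thbs2 in 2 of them, whereas Postn was lower in all 3 and Fap in 2. The label of activated tumour fibroblast genes therefore held for direction in Inhba and Thbs2 and went against the data in Postn and Fap. By edgeR, Tnc, Thbs1, Lox and Pdpn passed in wild-type females only among the 3 tumour comparisons. DESeq2 also called Lox in knock-in males and Thbs2 in wild-type males, and the difference between the sexes was itself past the threshold for Lox alone by edgeR. The samples are pieces of tissue, so fewer cells of a type and less RNA per cell cannot be told apart.

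The start regions of 3 of these genes are shown because Inhba and Thbs2 moved up and Postn moved down in the same tumours. RefSeq promoter windows on GRCm38.p6 were found for 5 of the 8 genes, and the 250 bases before the annotated start are given 5′ to 3′ on the strand of the gene. Capitals mark matches to 5 searched motifs on either strand. These were the AP-1 motif TGANTCA, the TEAD motif GGAATG, the SMAD motif CAGAC, the TATA box TATAAA and the CArG box. The windows are chr13:16011601-16011850, plus strand, for Inhba, chr17:14694263-14694512, minus strand, for Thbs2 and chr3:54360857-54361106, plus strand, for Postn.
Inhba: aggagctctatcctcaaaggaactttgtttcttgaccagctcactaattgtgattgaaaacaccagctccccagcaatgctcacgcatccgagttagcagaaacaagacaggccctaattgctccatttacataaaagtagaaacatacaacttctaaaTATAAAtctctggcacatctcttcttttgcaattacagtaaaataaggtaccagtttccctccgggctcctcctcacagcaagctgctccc
Thbs2: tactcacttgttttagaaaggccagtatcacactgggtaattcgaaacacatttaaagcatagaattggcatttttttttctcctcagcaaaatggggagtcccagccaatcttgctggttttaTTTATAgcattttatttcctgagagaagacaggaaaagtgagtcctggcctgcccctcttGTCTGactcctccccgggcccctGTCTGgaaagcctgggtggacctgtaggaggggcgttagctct
Postn: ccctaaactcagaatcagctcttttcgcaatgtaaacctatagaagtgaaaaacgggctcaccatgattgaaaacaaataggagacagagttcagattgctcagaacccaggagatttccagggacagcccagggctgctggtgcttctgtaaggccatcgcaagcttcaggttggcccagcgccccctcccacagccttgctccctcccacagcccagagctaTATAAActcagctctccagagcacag
The Postn window held a TATA box whose first base lies 26 bases before the start, and the Inhba window held one at 91 bases. A further Postn window, upstream at chr3:54359017-54359266 and not shown, held a SMAD match at 191 bases and no TATA box. The Thbs2 window held a TATA box match at 126 bases and 2 SMAD matches at 66 and 43 bases, all on the opposite strand. Of 32851 promoter windows of 250 bases, 12.37% held the TATA box, 42.19% SMAD, 12.64% TEAD, 6.75% AP-1 and 1.47% the CArG box. A match describes these letters and shows no bound site.

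Library totals ran from 3414123 counts, in wild-type male tumour 2, to 26174008, in wild-type female normal 1. In that shallowest library 3 counts, taken as the floor, equal 0.873 CPM (read counts scaled to a common library size), and Fap was at 1 count there. CPM values use TMM-scaled library sizes. The summed level of 10 general fibroblast markers (such as Pdgfra, Dcn and Col1a1) had a mean of 2939 ± 145 CPM (n = 3, SD) in normal colon of wild-type males and 3032 ± 153 in their tumours, with ranges of 2834 to 3104 and 2857 to 3138. It was lowest in wild-type female normal colon, at 1281 to 1552 CPM, against 2106 to 3345 in wild-type female tumours. The 6 smooth muscle markers fell in all 3 tumour comparisons, from a sum of 2685 to 9007 CPM in wild-type male normal colon to 174 to 694 in the tumours. These marker sums moved with the groups by different amounts, and their part in the results below was not tested.

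Between tumour and normal colon of wild-type males, 3 of the 8 genes passed the test, Inhba higher and Postn and Fap lower, where 35.7% of all tested genes passed. In knock-in males 3 passed, Inhba and Thbs2 higher and Postn lower, where 20.4% of all tested genes did. In wild-type females all 8 passed, 6 higher and 2 lower, where 49.1% of all tested genes did. The median log2 difference of the 8 genes was 1.93 for wild-type females, 0.60 for knock-in males and 0.15 for wild-type males, against 0.008, 0.007 and 0.005 over all tested genes. A test is edgeR's quasi-likelihood F test, two-sided, with Benjamini-Hochberg adjustment over the 15936 genes and a threshold of 0.05. In knock-in males Inhba alone passed when only the compared groups entered the fit, with adjusted p-values of 0.072 for Postn and 0.0566 for Thbs2, and the share of all genes that passed was then 4.72%.

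**Figure D1:**
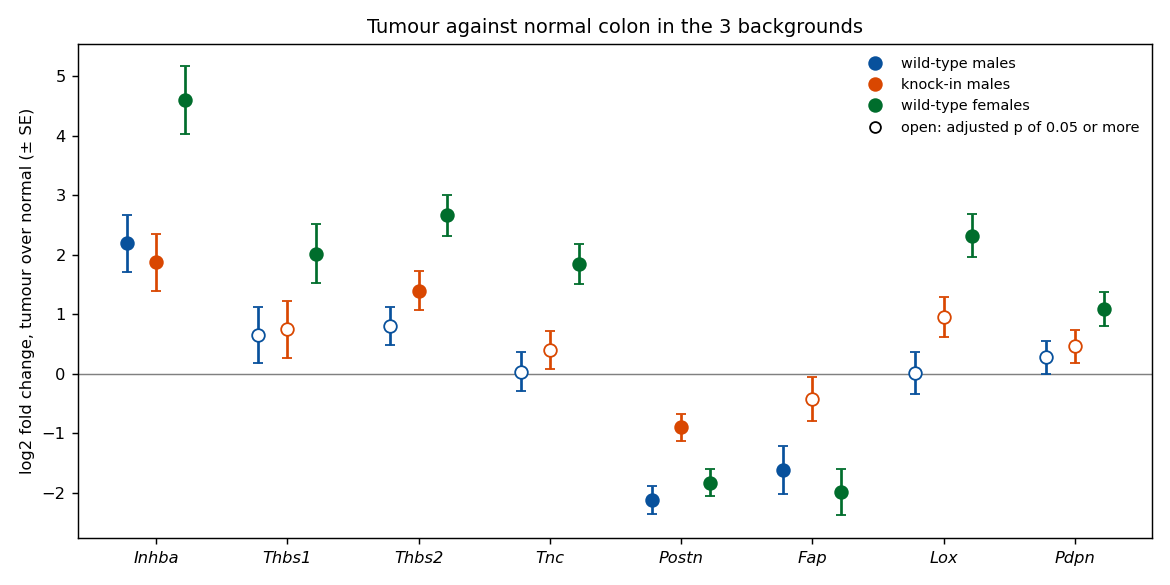
Log2 fold change of tumour over normal colon (vertical axis, ± standard error) for each gene (horizontal axis) in males of each genotype and wild-type females, 3 libraries per group, with open points for an adjusted p of 0.05 or more. Inhba lies above 0 in all 3 comparisons and Postn below, and the wild-type female points of Tnc, Thbs1, Thbs2, Lox and Pdpn are the highest of their genes.

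Inhba, the activin A subunit gene on chromosome 13 (16011851-16031621, GRCm38, plus strand), had the widest range of the 8 genes, with a mean 22.3 times higher in wild-type female tumours than in wild-type female normal colon. In wild-type males it stood at 6.66, 16.4 and 2.29 CPM in normal colon and at 34.8, 51.8 and 30.95 CPM in tumours. Knock-in males had 5.70, 3.99 and 7.09 CPM in normal colon and 14.4, 26.4 and 20.1 CPM in tumours. Wild-type females had 1.27, 1.53 and 3.41 CPM in normal colon and 38.7, 48.5 and 50.9 CPM in tumours. No tumour library overlapped the normal libraries of its own background. The knock-in male tumours were the lowest of the tumours, and wild-type male normal 2 lay between the values of knock-in male tumours 1 and 3. Knock-in female normal colon was low, at 3.87, 2.47 and 2.45 CPM.

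Inhba rose by 2.19 ± 0.48 log2 units (SE) in wild-type male tumours, with an adjusted p of 0.00212 in edgeR. With each of the 6 libraries left out in turn the rise ran from 1.76 to 3.05 and passed each time. The lowest was without wild-type male normal 3 and the highest without wild-type male normal 2, its highest normal library. In knock-in males it rose by 1.87 ± 0.48, with an adjusted p of 0.0143 in edgeR. That call was lost without knock-in male normal 2 (adjusted p of 0.0547) or without knock-in male tumour 2 (0.0586), and under offsets for GC content and length with the replicate block (0.0749). In wild-type females it rose by 4.60 ± 0.57, with an adjusted p of 6.2e-06 in edgeR. Knock-in male tumours differed from wild-type male tumours by -0.93 ± 0.46, without overlap between the libraries and with an adjusted p of 0.165 in edgeR, which did not pass. The summed level of 3 neutrophil markers moved with Inhba, from a mean of 9.79 to 43.3 CPM in wild-type males, 11.8 to 35.3 in knock-in males and 4.06 to 80.8 in wild-type females. All 3 of these markers passed as higher for wild-type female tumours, 1 for wild-type male tumours and 0 for knock-in male tumours. In that order, 49.1%, 35.7% and 20.4% of all tested genes passed in either direction, so 1 of 3 in wild-type males is near the background. Log2 Inhba and the neutrophil sum had an r of 0.93 over the 21 libraries and 0.65 within groups. Other marker sums had r of 0.93 for lymphatic endothelial (0.64 within groups), -0.90 for epithelial (-0.41) and -0.85 for smooth muscle markers (-0.385). So r did not single out the neutrophil sum. The lymphatic endothelial sum does not stand for its list, whose medians were -0.32, 0.04 and -0.16 log2 units for tumours of wild-type males, knock-in males and wild-type females. The part of any of these cells in the Inhba values was not tested.

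Activin and TGF-beta genes were followed through a list of 19 ligands, receptors and inhibitors. Of these, 5 were higher and 5 lower in wild-type male tumours, 2 higher and 2 lower in knock-in male tumours, and 12 higher and 4 lower in wild-type female tumours. These counts stand against 35.7%, 20.4% and 49.1% of all tested genes, and the 4 of 19 in knock-in males are near that background. The list medians were 0.25, -0.06 and 0.92 log2 units. Fst (follistatin, the secreted inhibitor of activin) rose with Inhba in all 3 comparisons, by 2.36 ± 0.67, 2.03 ± 0.67 and 4.14 ± 0.77 log2 units in the order given above. Bambi, a decoy receptor, also rose in all 3, by 2.12, 1.32 and 1.61, and Tgfbr3 (betaglycan, a TGF-beta co-receptor) fell by 2.31, 1.21 and 1.60.

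The paralog Inhbb rose in wild-type males by 1.73 ± 0.55 and in wild-type females by 5.35 ± 0.72, and stood at 0.75 ± 0.54 in knock-in males, which did not pass. Among the activin receptors, Acvr1b fell by 0.81 and Acvr1c by 2.87 in wild-type male tumours and by 0.89 and 2.21 in wild-type female tumours. The type II receptor Acvr2a fell by 0.53 in wild-type females while Acvr2b rose by 0.92, and neither passed in males. In knock-in males, none of these 4 receptors passed. The inhibitor Fstl3 rose by 1.56 ± 0.47 in wild-type females and stood at -1.18 ± 0.43 in knock-in males, where it did not pass.

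**Figure D2:**
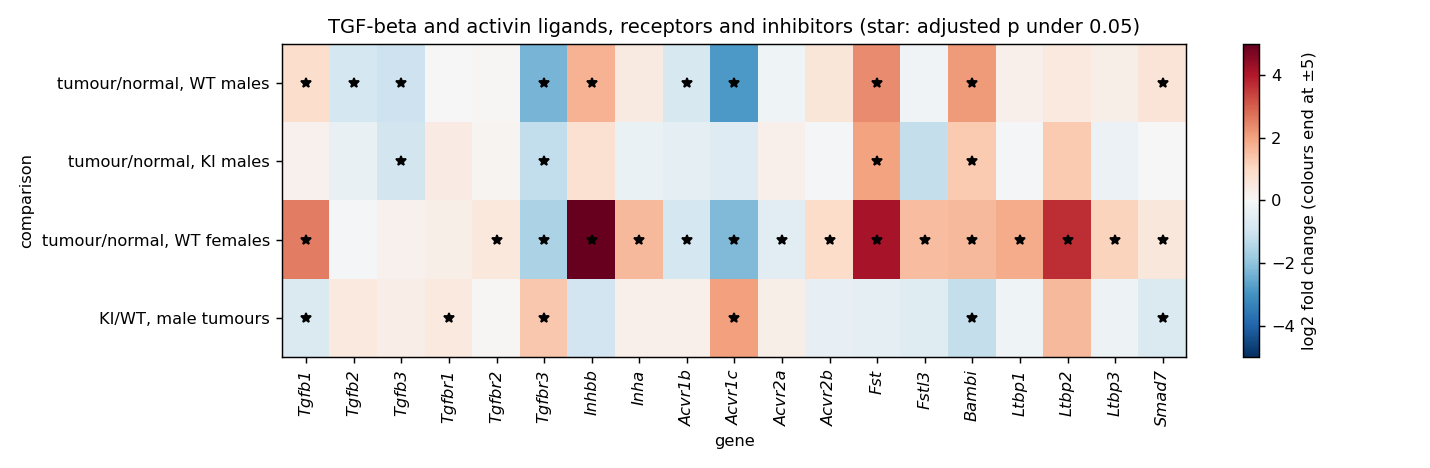
Log2 fold change (colour, red higher, blue lower) of the 19 listed TGF-beta and activin genes (horizontal axis) in 3 tumour comparisons and between male tumours of the genotypes (vertical axis), with a star where the adjusted p is under 0.05. The row of wild-type females holds 16 stars, and Fst, Bambi and Tgfbr3 have a star in each tumour row.

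A list of 9 genes known to respond to TGF-beta had 5 higher and 0 lower members in wild-type male tumours and 4 and 0 in knock-in male tumours. In wild-type female tumours 8 were higher and 1 lower. In the same order, 35.7%, 20.4% and 49.1% of all tested genes passed in either direction. Tgfbi, Skil, Pmepa1 and Il11 rose in each. Il11, a cytokine of stromal cells, rose by 2.27 ± 0.77, 3.59 ± 0.87 and 6.12 ± 0.98 log2 units, and Pmepa1, a feedback inhibitor of SMAD signalling, by 1.10, 0.96 and 2.51. The list medians were 0.66, 0.71 and 2.39. Smad7 and Ltbp2 also belong to the list of 19, and Tgfbi and Ctgf to the matricellular list below, so the counts are not separate evidence.

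Among the matricellular genes, Postn on chromosome 3 (54361109-54391037, plus strand) was the highest of the 8 genes per exon length in wild-type male normal colon and was below Thbs1 and Tnc in the tumours of that background. Its mean per kilobase of exon went from 85.9 to 19.8 CPM, whereas Thbs1 went from 54.8 to 85.9 and Tnc from 29.6 to 30.3. Wild-type males had 287, 211 and 349 CPM in normal colon and 51.1, 75.7 and 68.4 CPM in tumours. In knock-in males Postn stood at 275, 356 and 203 CPM in normal colon and at 120.1, 194 and 132 CPM in tumours. Wild-type females had 311, 315 and 425.5 CPM in normal colon and 109, 96.85 and 88.3 CPM in tumours. Each background separated without overlap, and the 3 tumour groups also separated from each other, with knock-in males highest and wild-type males lowest. Knock-in female normal colon had 356, 409.5 and 380.0 CPM, within or close to the other normal groups.

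Postn fell by 2.13 ± 0.23 log2 units in wild-type male tumours, a mean 4.37 times lower in the fit (edgeR, adjusted p of 7.3e-06). It fell by 0.90 ± 0.22 in knock-in males (edgeR, adjusted p of 0.0108) and by 1.84 ± 0.23 in wild-type females (edgeR, adjusted p of 5.0e-06). Beside it, the summed smooth muscle markers averaged 369 CPM for tumours of wild-type males, 888 for those of knock-in males and 184 for those of wild-type females, against 6154, 5440 and 2944 in the normal groups. Over the 21 libraries log2 Postn and that sum had a Pearson r of 0.90, and deviations from the group means had an r of 0.51. Other marker sums had r of -0.88 for lymphatic endothelial (-0.70 within groups), -0.86 for neutrophil (-0.42) and 0.85 for epithelial markers (0.36). Of the 3 tested lymphatic endothelial markers, 1 rose in wild-type tumours of each sex and 0 in knock-in male tumours. Of all tested genes, 35.7% passed in wild-type males, 49.1% in wild-type females and 20.4% in knock-in males. The marker medians were -0.32 log2 units in wild-type males, -0.16 in wild-type females and 0.04 in knock-in males, so that sum does not stand for the list. These points share libraries and fall into tumour and normal clusters, so r is a description of that layout.

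**Figure D3:**
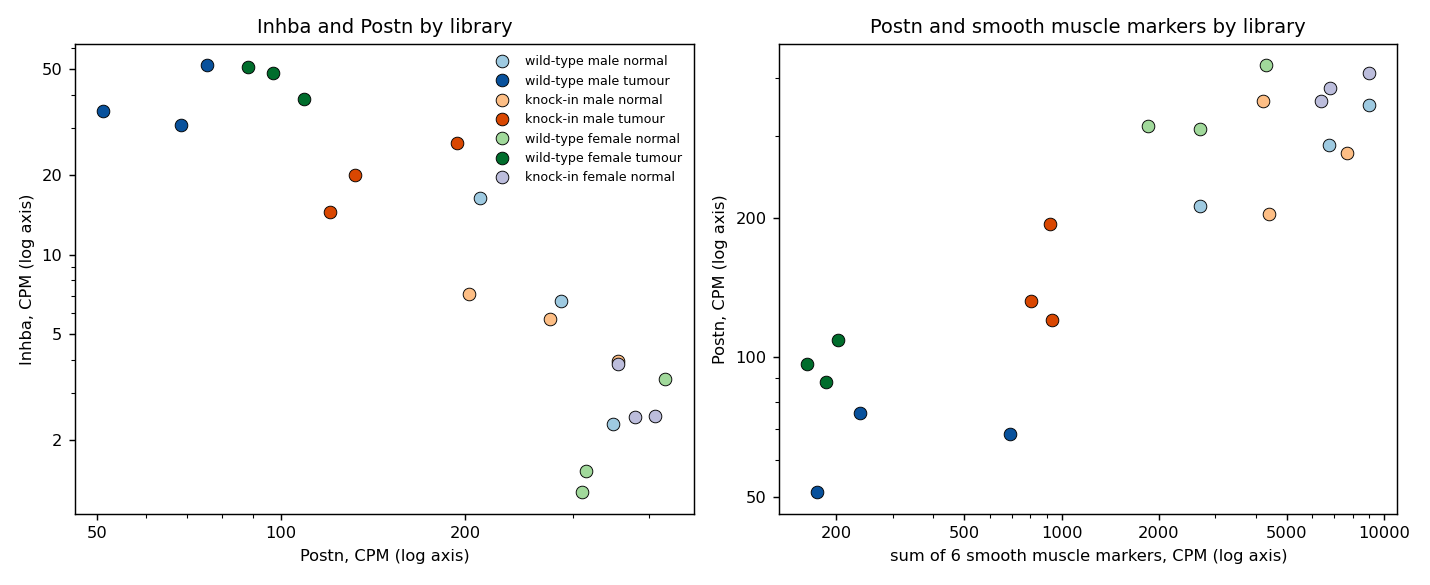
Left, Inhba against Postn, and right, Postn against the sum of 6 smooth muscle markers, in each of 21 libraries (CPM, log axes, colours by group). Tumour libraries lie at high Inhba and low Postn, and the knock-in male tumours, at 120.1 to 194 CPM of Postn, lie between the other tumours and normal colon.

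Thbs2, thrombospondin 2, lies on chromosome 17 (14665500-14694235, minus strand). In wild-type males it stood at 64.7, 63.3 and 41.6 CPM in normal colon and at 91.7, 77.7 and 124 CPM in tumours. Knock-in males had 66.8, 36.2 and 49.4 CPM against 85.9, 183 and 131 CPM. Wild-type females had 16.6, 15.3 and 28.8 CPM against 92.8, 112 and 176 CPM. Tumours lay above normal colon without overlap in each of the 3 backgrounds, while the 3 tumour groups overlapped. Knock-in female normal colon had 43.9, 38.1 and 29.8 CPM. The rise was 1.39 ± 0.33 log2 units in knock-in males (edgeR, adjusted p of 0.00884) and 2.66 ± 0.35 in wild-type females (edgeR, adjusted p of 1.04e-05). In wild-type males the difference of 0.80 ± 0.32 did not pass (edgeR, adjusted p of 0.0639), though it did when the other groups were left out of the fit (0.0348) and by DESeq2 (0.0382).

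Thbs1 on chromosome 2 (118111876-118127133, plus strand) shares exon positions with the antisense gene Gm29233, so its reads are uncertain without a stated strand setting. It stood at 261, 504 and 196 CPM in wild-type male normal colon and 355, 682 and 470.4 CPM in the tumours. In knock-in males it had 447, 120.3 and 248 CPM against 679, 319 and 365 CPM. Wild-type females had 88.0, 206 and 124 CPM against 468, 522.5 and 695 CPM. Male normal and tumour libraries overlapped in both genotypes, and female ones did not. Knock-in female normal colon, at 199, 108 and 126 CPM, overlapped the other normal groups. The differences of 0.65 ± 0.48 and 0.74 ± 0.48 log2 units in wild-type and knock-in males did not pass, and the rise of 2.02 ± 0.49 in wild-type females did (edgeR, adjusted p of 0.00303).

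Tnc, tenascin-C, lies on chromosome 4 (63959785-64047015, minus strand). Wild-type males had 199, 260.1 and 231 CPM in normal colon and 207, 300.3 and 199.9 CPM in tumours. Knock-in males had 332, 161 and 213 CPM against 169.6, 455 and 307 CPM. Wild-type females had 85.7, 116 and 86.1 CPM against 217, 421 and 397.5 CPM. In normal colon of knock-in females it had 184, 175 and 145 CPM, above wild-type females and below wild-type males. Male values overlapped, with differences of 0.03 ± 0.32 and 0.40 ± 0.32 log2 units that did not pass. In wild-type females Tnc rose by 1.85 ± 0.33 (edgeR, adjusted p of 0.000232), from the lowest level of the 7 groups to the highest.

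Of 16 other matricellular genes, 6 were higher and 4 lower in wild-type male tumours, 3 and 3 in knock-in male tumours and 10 and 3 in wild-type female tumours, against the same shares of all genes (35.7%, 20.4% and 49.1%). Thbs4, Tnxb (tenascin-X) and Sparcl1 fell in all 3, as Postn did. Thbs4 fell by 3.14, 1.32 and 3.01 log2 units, Tnxb by 2.95, 1.72 and 2.30, and Sparcl1 by 2.76, 1.58 and 2.41. Spp1 (osteopontin), Wisp1 and Tgfbi rose in all 3, Spp1 by 2.10 ± 0.78, 3.45 ± 0.83 and 6.90 ± 1.03. The paralog Thbs3 stood at -0.49, -0.45 and -0.33 and passed in none. So the thrombospondins and tenascins each had members on both sides, with Thbs2 up beside Thbs4 down and, in wild-type females, Tnc up beside Tnxb down.

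Receptors of these proteins were taken from a list of 12, of which 11 were tested. In wild-type male tumours 2 rose and 2 fell, in knock-in male tumours 5 and 2, and in wild-type female tumours 6 and 2. The 4 of 11 in wild-type males are near the 35.7% of all genes that passed there. Itgav, the integrin alpha V chain that binds periostin and tenascin-C, rose by 0.79, 1.14 and 1.395 log2 units, and Cd44, a receptor for osteopontin and hyaluronan, by 1.26, 1.42 and 2.29. The thrombospondin receptor Cd36 fell by 1.46 in wild-type males and by 2.29 in wild-type females, and stood at -0.13 in knock-in males. Cd47, which also binds thrombospondin, rose by 0.62 in knock-in males and by 1.07 in wild-type females. Clec1b, the podoplanin receptor of platelets, had too few counts to be tested.

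**Figure D4:**
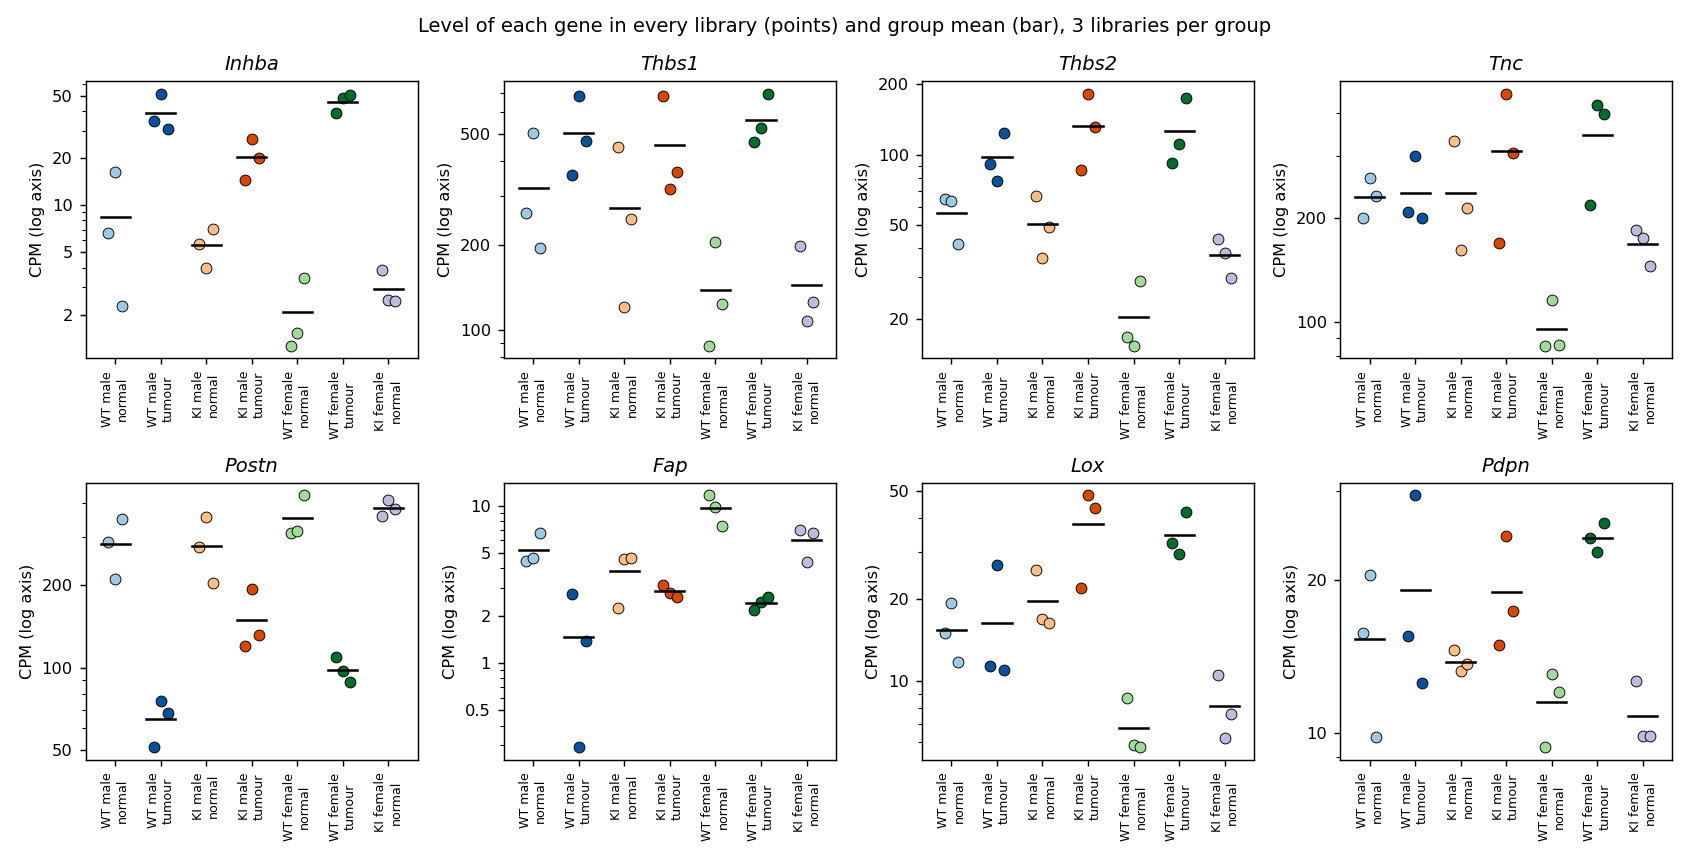
Level of each of the 8 genes (CPM, log axis) in every library (points) with the group mean (bar), for 7 groups of 3 libraries, WT wild-type and KI knock-in. Postn and Fap are highest in normal groups, Inhba is highest in the tumour groups, and wild-type female normal colon is the lowest group for Inhba, Thbs1, Thbs2, Tnc and Lox.

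Lox is on chromosome 18, minus strand, and shares exon positions with an antisense gene, so its counts carry the same uncertainty as those of Thbs1. Wild-type males had 15.1, 19.5 and 11.7 CPM in normal colon and 11.4, 26.8 and 11.05 CPM in tumours. Knock-in males had 25.7, 16.9 and 16.4 CPM against 22.05, 48.3 and 43.4 CPM. Wild-type females had 8.71, 5.85 and 5.73 CPM against 32.2, 29.5 and 42.0 CPM. Female tumours and normal colon separated, and male ones of both genotypes overlapped. Knock-in female normal colon, at 10.6, 6.18 and 7.58 CPM, overlapped that of wild-type females. Lox rose by 2.32 ± 0.36 log2 units in wild-type females (edgeR, adjusted p of 5.5e-05), and its differences of 0.02 ± 0.35 in wild-type males and 0.95 ± 0.34 in knock-in males did not pass (edgeR, adjusted p of 0.979 and 0.0555). The knock-in male difference passed without knock-in male tumour 1 (0.0247), on library totals (0.0473) and by DESeq2 (0.0331).

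Of 8 other lysyl oxidases and collagen-modifying enzymes, 2 rose and 2 fell in wild-type male tumours, 0 rose and 2 fell in knock-in male tumours, and 4 rose and 1 fell in wild-type female tumours. These shares are not far from the 35.7%, 20.4% and 49.1% of all genes. The paralog Loxl1 fell by 1.26 ± 0.30 log2 units in wild-type males and by 0.93 ± 0.29 in knock-in males. Loxl2 rose by 1.77 ± 0.23 in wild-type females and stood at 0.49 and 0.40 in males, where it did not pass. Plod2, a lysyl hydroxylase that prepares collagen for crosslinking, fell by 0.85, 0.51 and 1.07. Bmp1, which trims procollagen and pro-lysyl oxidase, rose by 1.06 in wild-type males and 1.96 in wild-type females.

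Fap, on chromosome 2 (62500943-62574075, minus strand), was the least abundant gene per exon length in all 3 tumour groups. Wild-type males had 4.44, 4.64 and 6.665 CPM in normal colon and 2.74, 0.291 and 1.38 CPM in tumours, the middle value resting on 1 count. Knock-in males had 2.24, 4.56 and 4.67 CPM against 3.13, 2.78 and 2.64 CPM. Wild-type females had 11.6, 9.76 and 7.43 CPM against 2.17, 2.46 and 2.61 CPM. Wild-type tumours lay below normal colon without overlap in both sexes, and knock-in male libraries overlapped. Knock-in females had 6.96, 4.38 and 6.66 CPM in normal colon. Fap fell by 1.62 ± 0.40 log2 units in wild-type males (edgeR, adjusted p of 0.0044) and stood at -1.995 ± 0.39 in wild-type females, which also passed (edgeR, adjusted p of 0.000371). Without the shallow tumour library the fall in wild-type males was 1.32 and still passed (0.0116), and without wild-type male tumour 1 it was 2.38. In knock-in males the difference of -0.43 ± 0.38 did not pass.

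Dpp4, the relative and partner of Fap at the cell surface, fell in all 3 comparisons, with log2 differences of -1.83 ± 0.24, -0.89 ± 0.23 and -1.49 ± 0.23. Dpp4 is also made by epithelial cells, and the sum of 7 epithelial markers averaged 6807 CPM in wild-type male normal colon and 5227 in the tumours, 6034 and 5859 in knock-in males, and 7875 and 5017 in wild-type females. Of the 7 epithelial markers, 6 fell and 1 rose in wild-type tumours of each sex, and 0 fell and 1 rose in knock-in male tumours. The part of epithelial cells in the Dpp4 values was not tested. Of the 10 fibroblast markers, 1 rose and 2 fell in wild-type male tumours, and 2 rose and 1 fell in knock-in male tumours. In wild-type female tumours 6 rose and 2 fell. For both marker lists, the shares of all tested genes that passed were 35.7%, 20.4% and 49.1% in that order. In males of each genotype 7 of the 10 fibroblast markers did not pass. Dpt (dermatopontin, a matrix protein), named after its values were seen, was the fibroblast marker that fell in all 3, by 2.02, 0.99 and 1.79.

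Pdpn, on chromosome 4 (143267431-143299564, minus strand), varied least between groups, with a mean 2.24 times higher in the highest group than in the lowest. Wild-type males had 15.7, 20.4 and 9.85 CPM in normal colon and 15.55, 29.4 and 12.5 CPM in tumours, and knock-in males 14.6, 13.2 and 13.7 CPM against 14.9, 24.5 and 17.4 CPM. Wild-type females had 9.38, 13.1 and 12.1 CPM against 24.2, 22.7 and 25.9 CPM. Libraries of wild-type males overlapped, and those of knock-in males and wild-type females did not. Normal colon of knock-in females had 12.7, 9.89 and 9.88 CPM. Pdpn rose by 1.09 ± 0.28 log2 units in wild-type females (edgeR, adjusted p of 0.00365), and differences of 0.27 ± 0.28 and 0.46 ± 0.27 in wild-type and knock-in males did not pass. The summed lymphatic endothelial markers, whose cells also make podoplanin, averaged 499 CPM in wild-type female tumours and 41.8 in normal colon, carried by Prox1 at 5.75 ± 0.81 log2 units. The other 2 tested markers, Flt4 at -0.16 and Lyve1 at -0.73, did not pass, and the median of the 3 was -0.16. Ccl21a was at 0 counts throughout, and the part of these cells was not tested.

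The series asks how the App mutations relate to tumours, which the male tumours of both genotypes address for these genes. Of the 8 genes, Postn and Lox, 2 in all, were higher in the knock-in tumours, where 14.5% of all tested genes passed. Postn was higher by 1.20 ± 0.23 log2 units (edgeR, adjusted p of 0.0057), without overlap between the libraries. Lox was higher by 1.28 ± 0.35 (edgeR, adjusted p of 0.0262), with overlap, since wild-type male tumour 2 at 26.8 CPM exceeded knock-in male tumour 1 at 22.05. Fap, at 0.75 ± 0.41, and Thbs2, at 0.44 ± 0.32, did not pass. The Lox call was lost when the other groups were left out of the fit (0.131), and without wild-type male tumour 1 or 3, or knock-in male tumour 2 or 3 (0.0512 to 0.12). The Postn call was lost under offsets for GC content and length joined with the replicate block (0.0544). Smooth muscle markers stood higher beside Postn, with a median of 1.34 log2 units and 0 of 6 past the test. Tgfbr3, Thbs4, Dpp4 and Dpt, which fell in wild-type male tumours, were also higher in the knock-in tumours. Most other members of their lists did not pass. Of the 19 TGF-beta and activin genes 3 were higher and 3 lower. Of 16 matricellular genes 1, of 11 receptors and partners 1 and of 10 fibroblast markers 2 were higher, with 0 lower. All tumour comparisons of 1 background share libraries, so these values are not independent of the tumour effects above.

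Whether the tumour effect differed by genotype in males was tested as an interaction. None of the 8 passed by edgeR, against 1.51% of all tested genes, with 2 at an unadjusted p under 0.05 and 1 called by DESeq2. Postn had the largest term among them, at 1.22 ± 0.32 log2 units (edgeR, adjusted p of 0.0547), and it passed in the fit on genes with a mean of at least 50 counts (0.0499) and by DESeq2 (0.0105). It passed in only these 2 of 10 alternatives that kept the compared libraries. Over the 10 the term went down to 0.71 and the adjusted p up to 0.276 (edgeR). With 1 library left out it passed in 3 of 12 fits. In normal colon of males, 0 of the 8 differed by genotype, where 0.0126% of all tested genes did, with 0 at an unadjusted p under 0.05 and 0 by DESeq2. Their differences lay between -0.61 and 0.34 log2 units. In normal colon of females, 0 of the 8 passed in edgeR, where 16% of all tested genes did, with 2 at an unadjusted p under 0.05 and 2 by DESeq2. Those were Thbs2 at 0.90 ± 0.34 (edgeR, adjusted p of 0.0786) and Tnc at 0.81 ± 0.33 (edgeR, adjusted p of 0.101), both higher in knock-in females without overlap. Fap, at -0.68 ± 0.36, was lower without overlap and did not pass. Stromal markers moved with this comparison, the fibroblast sum from 1449 CPM in wild-type to 2746 in knock-in females. Higher were 5 of 10 fibroblast, 2 of 3 pericyte, 2 of 3 blood endothelial and 2 of 6 smooth muscle markers. Mesothelial markers went the other way, with 4 of 4 lower and a mean sum of 16.3 CPM in wild-type and 1.81 in knock-in females. The part of these cells in the Thbs2 and Tnc values was not tested. The genotype effect in normal colon did not pass a test of difference between the sexes for any of the 8 by edgeR, against 2.54% of all tested genes, with 1 at an unadjusted p under 0.05 and 0 by DESeq2.

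The title of the series names a dependence on sex, which 3 comparisons and an interaction address here. In wild-type normal colon, 4 of the 8 genes were lower in females, Thbs2, Inhba, Tnc and Lox, where 15.9% of all tested genes passed in either direction. The difference was -1.50 ± 0.34 log2 units for Thbs2 (edgeR, adjusted p of 0.00712) and -1.26 ± 0.33 for Tnc (edgeR, adjusted p of 0.0164). It was -2.16 ± 0.55 for Inhba, whose ranges overlapped (edgeR, adjusted p of 0.015), and -1.16 ± 0.36 for Lox (edgeR, adjusted p of 0.0361). The Thbs2 call held without any library in turn. Tnc was lost without wild-type female normal 1 or wild-type male normal 2, Inhba without either of these or wild-type female normal 2, and Lox without 5 of the 6 libraries. Inhba was -1.31 without wild-type male normal 2, and its call was also lost when the other groups were left out of the fit (0.0961). Fap pointed the other way, at 0.89 ± 0.36 without overlap, but did not pass (edgeR, adjusted p of 0.101), though DESeq2 called it (0.0441). The fibroblast marker sum of wild-type female normal colon, at 1449 ± 147 CPM, was below that of wild-type males, at 2939 ± 145, and 6 of the 10 fibroblast markers were lower.

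Female and male wild-type tumours did not differ in any of the 8 genes by edgeR, where 0.86% of all tested genes passed, with 2 at an unadjusted p under 0.05 and 1 by DESeq2. Lox at 1.14 ± 0.35 log2 units (edgeR, adjusted p of 0.0903) and Postn at 0.60 ± 0.23 (edgeR, adjusted p of 0.147) were higher in females without overlap. In knock-in normal colon 0 of the 8 differed by sex in edgeR, where 0.584% of all tested genes did, with 1 at an unadjusted p under 0.05 and 1 by DESeq2, which was Lox, at -1.26 ± 0.35 in edgeR. The tumour effect differed between wild-type females and males for 1 gene, Lox, by 2.30 ± 0.50 log2 units (edgeR, adjusted p of 0.037), where 1.12% of all tested genes passed. Thbs2 at 1.87 ± 0.46 (edgeR, adjusted p of 0.0587), Tnc at 1.82 ± 0.46 (edgeR, adjusted p of 0.0632) and Inhba at 2.41 ± 0.71 (edgeR, adjusted p of 0.113) did not pass and did by DESeq2. The Lox term was lost under the replicate block (0.0682), with the 3 libraries of running number 152 or above as a covariate (0.116), and without 9 of the 12 libraries in turn (0.0531 to 0.101), all but wild-type female tumour 1, wild-type male normal 3 and wild-type male tumour 2.

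Across the 7 groups, wild-type female tumours had the highest mean of Inhba, Thbs1, Tnc and Pdpn, and knock-in male tumours that of Thbs2 and Lox. Fap was highest in wild-type female normal colon, at 9.60 ± 2.10 CPM (SD, n = 3), and Postn in knock-in female normal colon, at 382 ± 26.7. Neighbouring groups in these orders mostly overlapped. For Thbs1 no pair of neighbours separated, from 562 ± 119 CPM at the top to 139.0 ± 60.3 at the bottom. For Postn the 4 normal groups overlapped in turn and the 3 tumour groups stood apart below them, at 149 ± 39.6, 98.1 ± 10.4 and 65.1 ± 12.6. Libraries of Inhba separated between wild-type male and knock-in male tumours, at 39.2 ± 11.1 and 20.3 ± 5.98.

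Over the 21 libraries, the 6 genes other than Fap and Postn rose and fell together, with Pearson r of log2 CPM from 0.71 to 0.90 in their 15 pairs. Their 12 pairings with Fap or Postn had r from -0.90 to -0.51, and Fap with Postn had 0.74. Much of this follows the split between tumour and normal libraries. Within groups, as deviations from the group means, the 15 pairs stayed positive, at 0.20 to 0.76, the 12 ran from -0.61 to 0.09, and Fap with Postn turned to -0.35. The within-group values of Fap lean on wild-type male tumours, where its log2 CPM spread most, at 1.54, -1.13 and 0.63. The middle value rests on 1 count, below the floor of 3, and r without that library was not computed. Pdpn with Inhba was the closest pair within groups.

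**Figure D5:**
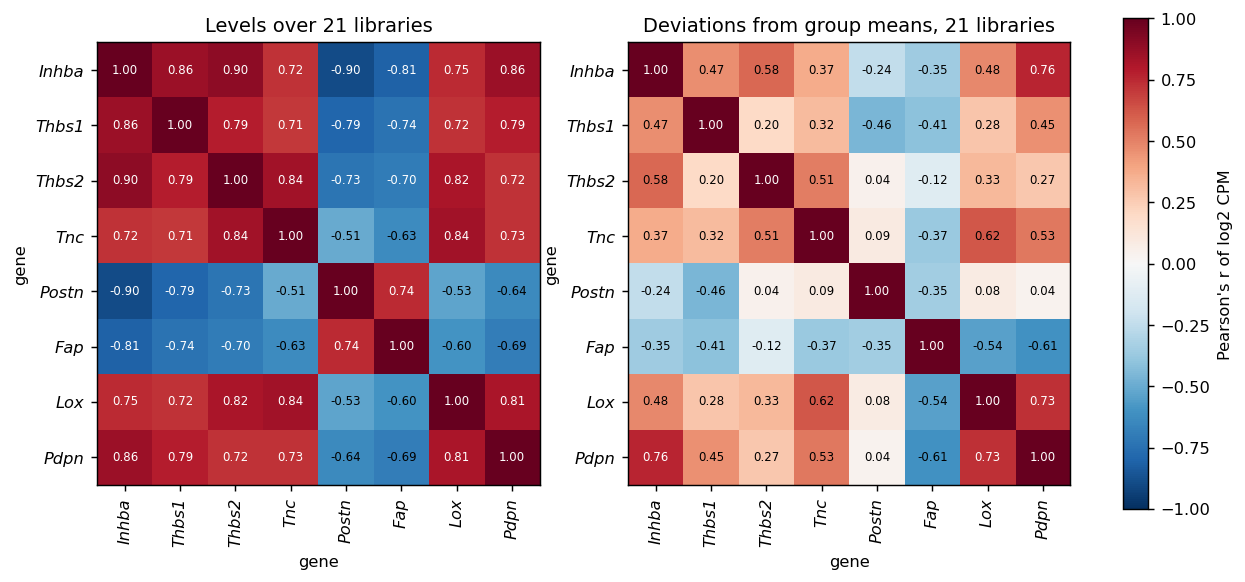
Pearson r of log2 CPM between the 8 genes over 21 libraries (left) and after subtracting group means (right), with colour from -1 to 1 and both axes listing the genes. Fap and Postn are negative with the other 6 genes on the left, and on the right the block of those 6 stays positive while Fap and Postn are at -0.35 with each other. Fap includes a value at 1 count, below the floor of 3, in wild-type male tumour 2.

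Searched among 11836 other genes, the closest pattern to Postn was that of Ogn (osteoglycin, a matrix proteoglycan), with r of 0.98 over 21 libraries and 0.66 within groups, followed by Nudt19 and Steap3. Inhba lay closest to Slc4a11, Cemip (a hyaluronan-degrading protein) and Mmp12 (macrophage elastase), each at 0.97 or 0.98 over libraries and 0.77 to 0.87 within groups. Lox lay near Lta4h and the collagens Col5a2 and Col12a1, at 0.91 to 0.92, and Tnc near Loxl2, Hdgf and Fstl1, at 0.88 to 0.90. For Thbs2 the nearest were Rtn4, Limch1 and Rbms1, for Thbs1 Slc1a4, Tnfrsf11b and Npnt, for Fap Bfar, Sycp3 and Mtif3, and for Pdpn Il4ra, Lca5 and Selp, at 0.90 to 0.96 together. The points share libraries, depth and the tumour and normal clusters, and these values are descriptions. Those of Fap include wild-type male tumour 2, where it was at 1 count, below the floor.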

How the data were processed

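Total RNA was depleted of ribosomal RNA and sequenced on an Illumina instrument, per the labels' protocols. The deposited table holds whole-number read counts per gene, and the submitters' processing notes name Trimmomatic, HISAT2, featureCounts, DESeq2 and the mm10 build. The strand setting and gene annotation are not given in the sources used here. A DESeq2 table of the authors was not used. A header is carried by 2 columns, which were taken as unnumbered knock-in female normal libraries. No column was left unmatched (0), and 0 rows lacked a gene name.

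Counts were fitted with edgeR 4.0.16 in R 4.3.3 (TMM, filterByExpr, robust glmQLFit with 1 coefficient per group, all 21 libraries), with DESeq2 1.42.0 as an alternative, for 9 comparisons and 3 interactions. CPM use TMM-scaled sizes, and log2 CPM a prior count of 2. A standard error is the log2 fold change divided by the square root of F. Labels do not say that libraries of a group come from separate animals, so p-values measure the spread between libraries. No replicates agreed within sampling noise. The scripts were tested on simulated data. Deviations from group means of same-numbered wild-type male normal and tumour libraries had r of 0.169, 0.174 and 0.215. In knock-in males r was -0.3, 0.062 and 0.062, and in wild-type females -0.064, -0.048 and 0.007. Between male normal colon of the genotypes, which are different mice, r was 0.461, -0.206 and -0.07. These values do not establish a pairing, and the main tests took none. The replicate number entered as a block only in the alternatives.

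The 8 genes and the gene lists were chosen with earlier results of these data known. List genes were named where they had the 3 largest called changes in a male tumour comparison or were a receptor, inhibitor or paralog of a described gene. The genes of closest pattern were the 3 with the highest r among genes with a mean of at least 50 counts. Gene positions are from GENCODE vM21 and promoters from RefSeq. Alternatives covered normalization, low-count filters, the samples fitted, the replicate block, running numbers, each library left out and, chosen after seeing the data, library totals and offsets for GC content and length.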

Additional observations from a re-analysis of the deposited data

Results flagged for a closer look

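The tumour effect on Lox differed between wild-type females and wild-type males by 2.30 ± 0.50 log2 units in a test of the difference itself (edgeR, adjusted p of 0.037). The call was lost under the replicate block (0.0682), with running numbers of 152 and above as a covariate (0.116), under the offsets with the block (0.0725) and without 9 of the 12 libraries in turn. Tumour and normal means were 34.55 and 6.76 CPM in females and 16.4 and 15.4 CPM in males. The fibroblast marker sum moved from 1449 to 2895 CPM in females and from 2939 to 3032 CPM in males, and its part in the result was not tested.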

How the results depend on the processing

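All 8 genes in wild-type female tumours and 3 in wild-type male tumours passed without any library in turn. In each count that follows, except those for libraries left out, the share of all genes called in that setting is in parentheses. With only the compared groups fitted, 1 of the 8 genes passed in knock-in male tumours (4.72%), 1 between genotypes in male tumours (9.59%), 2 between genotypes in female normal colon (18.8%), 1 between wild-type tumours of the sexes (8.1%) and 2 in the interaction with sex (1.16%). DESeq2 called 4 for tumours of wild-type males (34.3%), 4 for those of knock-in males (23.2%), 5 between wild-type normal colon of the sexes (21%), 2 between genotypes in female normal colon (20.2%), 1 between wild-type tumours of the sexes (7.11%), 1 between knock-in normal colon of the sexes (3.63%), 1 in the interaction with genotype (9.75%) and 4 in that with sex (3.8%). A mean of at least 50 counts gave 1 in the interaction with genotype (3.26%), and library totals gave 3 in that with sex (1.95%). Between genotypes in male tumours, GC and length offsets left 1 (7.08%) and, with the replicate block, 0 (5.04%). In the interaction with sex the replicate block (0.463%), the covariate for running numbers of 152 and above (0.144%), and the offsets with the replicate block (0.715%) each left 0. The block also lost Lox between normal colon of the sexes (adjusted p of 0.0557). No wild-type male tumour call changed with the block. With only the compared groups, 4 passed in wild-type male tumours (35.2%) and 3 between wild-type normal colon of the sexes (10.9%). In knock-in male tumours library totals gave 4 (20.4%) and the offsets with the block 2 (11.6%). Leaving out libraries gave 2 to 4 genes in knock-in male tumours, 1 to 2 between genotypes in male tumours, 0 to 1 in female normal colon, 1 to 4 between wild-type normal colon of the sexes, 0 to 1 in the interaction with genotype and 0 to 3 in that with sex. The share of all genes moved as well when a library was left out, so these ranges are not set against 1 share. It was 2.65% between genotypes in male tumours without knock-in male tumour 2. Between wild-type normal colon of the sexes it was 6.36% without wild-type female normal 2. In the interaction with genotype it was 13% without knock-in male normal 2. The causes were not tested.

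Direction reversed for Tnc without knock-in male tumour 2, to -0.013 for the tumour effect in knock-in males (-0.013 to 0.681 over the libraries left out) and to -0.005 between genotypes in male tumours (-0.005 to 0.651), for Inhba between genotypes in male normal colon without wild-type male normal 2, to 0.252 (-1.039 to 0.252), and for Postn between normal colon of the sexes, to -0.015 with the offsets and -0.02 with the offsets and the block. None of these had passed. Reversals were followed only where the main log2 difference was larger than its standard error. Genes nearer to no difference, such as Tnc, Lox and Pdpn in wild-type male tumours, were not followed and may also change direction. Library totals shifted the median of all genes to 0.151 in wild-type female tumours, 0.103 in female normal colon and 0.135 in the interaction with sex. The share of all genes called ran from 22.4% to 40.3% in wild-type male tumours, 4.72% to 25.2% in knock-in male tumours, 37% to 54% in wild-type female tumours, 2.65% to 19.2% between genotypes in male tumours and 0% to 0.0288% in male normal colon. It ran from 6.27% to 20.2% in female normal colon, 0.0738% to 8.1% between tumours of the sexes, 6.36% to 21% and 0.0309% to 4.01% between wild-type and knock-in normal colon of the sexes, and 0% to 13%, 0.144% to 3.8% and 0.558% to 6.24% in the interactions of tumour with genotype, of tumour with sex and of genotype with sex. Depth limits Fap most, at 1 count in the shallowest library.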

Other observations

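Set against the fibroblast markers, as log2 CPM minus the mean log2 CPM of the 10 markers, Inhba went from -4.46 to -1.46 between wild-type male normal colon and tumours, from -4.73 to -2.84 in knock-in males and from -5.30 to -1.24 in wild-type females. Postn went from 0.95 to -0.71, from 0.87 to 0.03 and from 2.09 to -0.15 in the same order. Fap, on the same scale, went from -4.75 to -6.38, from -5.29 to -5.56 and from -3.08 to -5.40. Inhba minus Postn, in log2 CPM, lay between -7.76 and -3.67 in every normal library, and between -3.04 and -0.55 in every tumour library, so the pair separated the tumour from the normal libraries. The choice of this pair was made after its values were seen.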
